A study of Arabidopsis thaliana with 48 samples.

Results

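The nuclear photosystem and antenna genes are 43 genes of Arabidopsis thaliana that encode subunits of photosystem I and photosystem II and the chlorophyll-binding antenna proteins attached to them. They were chosen by gene identifier, by the subunit each encodes and not by measured values, though with earlier results of these data known. All 43 are among the 23069 genes of the count table. The set holds 6 LHCA genes, 15 LHCB genes, 12 PSA genes of photosystem I and 10 PSB genes of photosystem II. All 43 passed the filter on low counts that left 19747 genes for testing.

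Plants carried pAP1:AP1-GR in the ap1 cal double mutant of the Col-0 accession, and every sample analysed here has this genotype. The ap1 cal mutant makes cauliflower-like masses of inflorescence meristems, and the transgene expresses the floral regulator AP1 fused to a glucocorticoid receptor domain under the AP1 promoter, so that dexamethasone starts flower formation in many meristems together. Inflorescences were drenched with 2 µM dexamethasone, first at 8 h and then daily at 4 h after lights on, in a cycle of 16 h light and 8 h dark at 21 °C. Polyadenylated RNA was sequenced at 0, 1, 2, 3, 4 and 5 days after induction, with 4 biological replicates a day and 2 sequencing runs a sample, 24 samples in all. No mock-treated samples were analysed here, so time, repeated treatment and flower formation cannot be told apart, and the sources used here give no hour of sampling. Labels call the replicates biological, and nothing further says whether they came from separate plantings. P-values measure the spread between these samples.

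Photosystem II takes electrons from water and photosystem I passes them to ferredoxin. Both have core proteins encoded in the plastid and further subunits encoded in the nucleus, whose transcripts are measured here. LHCB proteins mainly serve photosystem II, as the trimeric antenna LHCII (LHCB1, LHCB2 and LHCB3) and as the monomeric linkers LHCB4, LHCB5 and LHCB6, while LHCA proteins are bound to photosystem I. In green tissue these transcripts are among the most abundant, and light, the circadian clock and the state of the plastid are all known to set their levels.

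The 5 LHCB1 copies, which carry the largest share of the signal, are similar to each other, most of all within a chromosome. In the TAIR10.1 assembly LHCB1.1, LHCB1.2 and LHCB1.3 lie together on chromosome 1 between positions 10472280 and 10479114, and LHCB1.4 and LHCB1.5 lie together on chromosome 2 between 14522524 and 14525918. Their transcripts are each a single exon. Coding identity was 95.6% to 96.4% among the chromosome 1 copies and 92.5% between those of chromosome 2, and the longest stretch shared without a mismatch was 119 bases (LHCB1.1 and LHCB1.3) and 122 bases. Between copies of different chromosomes identity was lower, at 87.0% to 91.1%. The last 90 coding bases of each, stop codon included, are shown as an example of how the copies differ, with capitals where a base differs from LHCB1.3.
LHCB1.1: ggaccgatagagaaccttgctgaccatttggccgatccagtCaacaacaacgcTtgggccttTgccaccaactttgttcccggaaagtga
LHCB1.2: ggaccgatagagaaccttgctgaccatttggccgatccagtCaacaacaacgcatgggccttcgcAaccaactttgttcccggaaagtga
LHCB1.3: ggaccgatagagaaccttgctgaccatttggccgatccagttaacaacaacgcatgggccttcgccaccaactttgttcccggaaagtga
LHCB1.4: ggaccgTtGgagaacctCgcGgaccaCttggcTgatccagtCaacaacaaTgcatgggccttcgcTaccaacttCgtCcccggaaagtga
LHCB1.5: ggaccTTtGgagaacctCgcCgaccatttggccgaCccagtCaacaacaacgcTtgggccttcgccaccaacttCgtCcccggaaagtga
Reads of such copies can be assigned to the wrong one, so differences between LHCB1 copies, and between LHCB2.1 and LHCB2.2 (96.6% identical), are uncertain. Other pairs share less than LHCB1 copies of the same chromosome, from 78.9% (PSBQ1 and PSBQ2) to 88.0% (PSAD1 and PSAD2), and LHCB4.3 was 70.2% to 70.8% identical to LHCB4.1 and LHCB4.2.

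Depth was even, at 26560205 to 27979597 counts a sample. Levels below are CPM, counts scaled to a fixed library total with TMM factors, as mean ± SD over n = 4, and changes are log2 fold changes from edgeR's quasi-likelihood test with Benjamini-Hochberg adjustment over the 19747 genes, called at adjusted p under 0.05. Inflorescence and floral meristem markers were present at day 0, with STM at 159 CPM and LFY at 48.5 CPM. The 4 tapetum markers summed to 0 to 0.472 CPM there, with DYT1 and MS1 at 0. On most days 1 replicate was the highest for most of the 43 members: replicate 2 for 30 at day 0, replicate 3 for 38 at day 1, 27 at day 2 and 40 at day 3, and replicate 1 for 33 at day 5. At day 4 the highest was replicate 3 for 19 members, replicate 4 for 15 and replicate 1 for 7. Replicate 3 was the lowest for 39 members at day 5.

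Summed over the 43 genes, the level in day 0 replicates 1 to 4 was 20471, 27888, 25615 and 20750 CPM, which is 2.32% ± 0.29 of all counts. At day 1 it was 16467, 16930, 20286 and 16122 CPM, and at day 3 13668, 15665, 17348 and 12721 CPM. Day 5 gave 17902, 16608, 12706 and 15600 CPM. Every sample of days 1 to 5 was below every sample of day 0, while those of days 1, 3 and 5 overlapped. In bulk tissue, fewer cells of a type and less RNA per cell cannot be told apart.

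**Figure D1:**
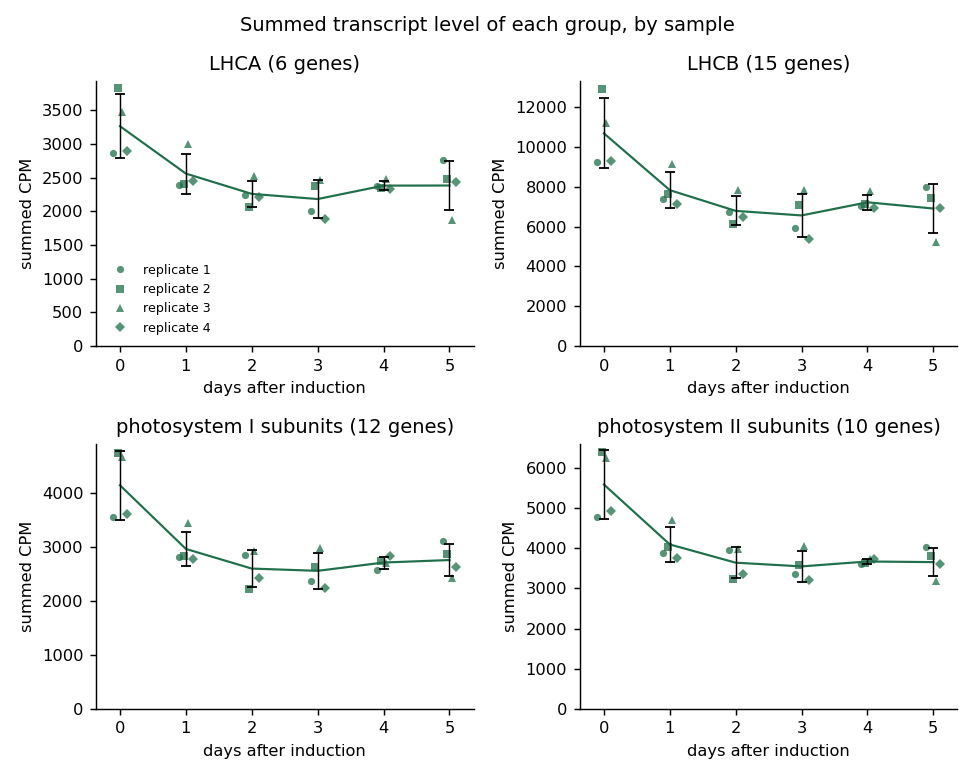
Summed level in CPM (y axes, from 0) against days after induction for the LHCA, LHCB, photosystem I and photosystem II genes; symbols are the 4 replicates, lines the means and bars the SD (n = 4). All 4 groups are highest at day 0, and the LHCB mean is 10684 CPM at day 0, 6561 at day 3 and 6907 at day 5.

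Over the 6 days 38 of the 43 members changed, against 48.9% of all tested genes. Against day 0, 31 members fell at day 1 (5.85% of all tested genes fell), 38 at day 2 (12.4%), 38 at day 3 (14.5%), 36 at day 4 (17.6%) and 37 at day 5 (22.9%). The median log2 change of the 43 was -0.45, -0.66, -0.67, -0.61 and -0.62 on days 1 to 5, where the median of all tested genes stayed between -0.01 and 0.01. No member rose on days 1 to 4 and 1, LHCB4.3, rose at day 5, while 4.21%, 11.3%, 14.6%, 17.8% and 24.3% of all tested genes rose on days 1 to 5. At an unadjusted p under 0.05 edgeR gave 0 risen members on days 1 to 3 and 1 at day 4, and DESeq2 called 0 and 1 in the same places. These 5 comparisons share the day 0 samples. Replicate ranges lay wholly below day 0 for 22, 36, 35, 36 and 32 members on days 1 to 5, against 9.19%, 12%, 13.8%, 16.3% and 17.9% of all tested genes.

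The day 1 count rests on single libraries. It was 11 without day 0 replicate 2, 18 without day 0 replicate 3, and 20 without day 1 replicate 1, 2 or 4. The counts for days 2 to 5 stayed between 33 and 39 when any 1 library was left out.

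After day 1 few further changes passed the test. From day 1 to day 2, 42 of 43 members were lower (median log2 change -0.21), against 10221 of the 19747 tested genes (median -0.01). No member was called (0.415% of all genes fell and 1.49% rose). From day 2 to day 3, 33 were lower (median -0.04), against 9984 of all tested genes, and none was called (0.177% and 0.694%). From day 3 to day 4, 7 were lower (median 0.08), against 9946 of all tested genes, and none was called (0.486% and 0.962%). DESeq2 also called none in these 3 steps, and at an unadjusted p under 0.05 edgeR gave 10 lower members from day 1 to 2, 1 higher from day 2 to 3 and 1 higher from day 3 to 4. With days 1 and 2 fitted alone 2 members fell. From day 4 to day 5, 4.42% of all genes fell and 7.75% rose, and of the members LHCB4.3 rose and none fell (none at an unadjusted p under 0.05 and none by DESeq2). That rise (log2 change 0.44, adjusted p = 0.00805) was not called when days 4 and 5 were fitted alone, nor without replicate number 2. Among days 1 to 5 alone 4 members changed, against 34.3% of all tested genes: LHCA6, LHCB1.1, LHCB4.3 and LHCB5. Without a single library this count ran from 2 (without day 1 replicate 1, 2 or 3) to 10 (without day 3 replicate 3), it was 7 without day 0 replicate 2, and it was 9 with scaling by library totals. Comparing day 5 with day 1 directly, 5 members fell (LHCA6, LHCB1.1, LHCB1.2, LHCB5 and PSAE2, against 18.8% of all genes) and LHCB4.3 rose (21.9% of all genes). The fallen count was 3 without day 1 replicate 3 or 4, 8 without day 5 replicate 1 and 2 without day 5 replicate 3, and with scaling by library totals it was 18. The LHCB1.2 call in it was lost without any of 15 single libraries, that of PSAE2 without day 1 replicate 3 or 4 or day 5 replicate 3, and that of LHCB1.1 without day 5 replicate 3. The highest mean of a member was at day 0 for 40 of 43, and the lowest was at day 3 for 24.

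**Figure D2:**
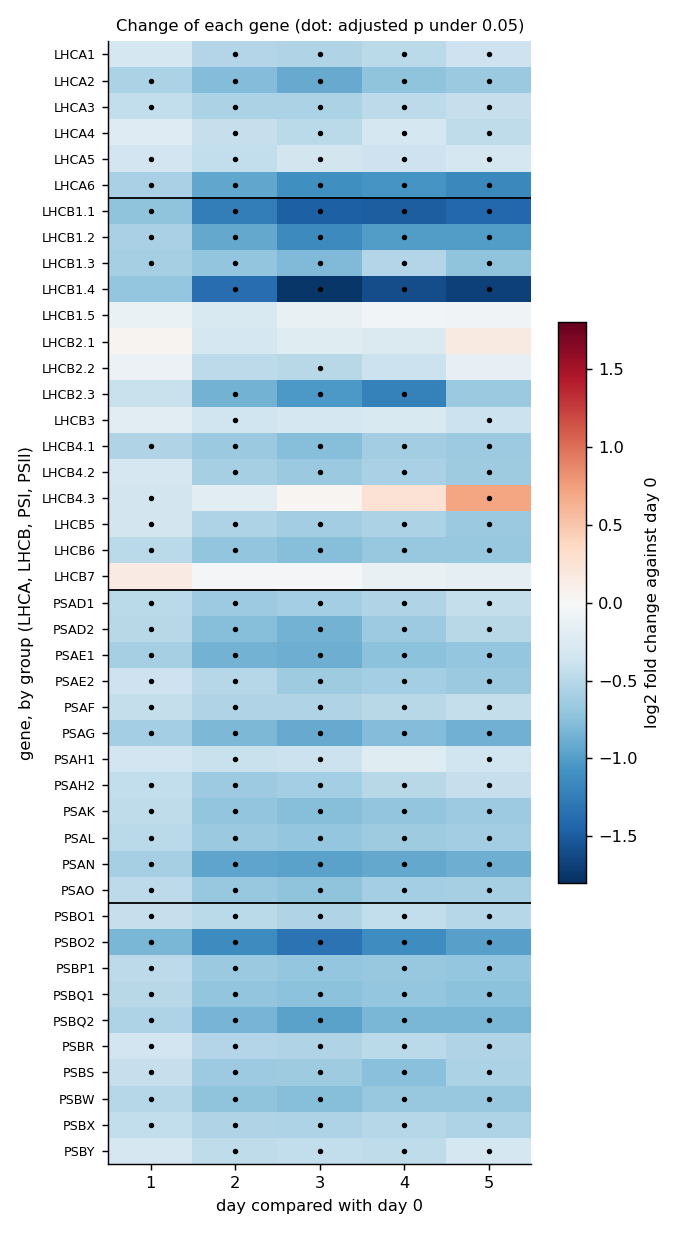
Log2 fold change against day 0 (colour, blue lower and red higher) of each of the 43 genes (rows, grouped as LHCA, LHCB, PSI and PSII) on days 1 to 5 (columns); a dot marks adjusted p under 0.05. Photosystem I and II rows are blue and dotted nearly throughout, whereas LHCB rows run from -1.75 (LHCB1.4 at day 3) to 0.70 (LHCB4.3 at day 5).

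The antenna genes were less uniform than the subunit genes. Of 21 antenna genes 11, 16, 16, 15 and 15 fell on days 1 to 5, of 12 photosystem I genes 11, 12, 12, 11 and 12, and of 10 photosystem II genes 9, 10, 10, 10 and 10. At day 3 the median log2 change was -0.63 for the antenna, -0.71 for photosystem I and -0.67 for photosystem II. Within the antenna all 6 LHCA genes fell from day 2 on, and 10, 10, 9 and 9 of 15 LHCB genes on days 2 to 5. The summed antenna level was 3.37 ± 0.16 times that of photosystem I at day 0 and 3.36 ± 0.30 times at day 5, and the photosystem I level was 0.740 ± 0.0045 times that of photosystem II at day 0 and 0.753 ± 0.018 at day 5. The ratio of LHCB to LHCA was 3.27 ± 0.068 at day 0 (range 3.22 to 3.37) and 2.89 ± 0.097 at day 5 (range 2.78 to 3.01), which do not overlap; these ratios of sums are descriptions with no test.

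The LHCII gene LHCB1.3 (AT1G29930) had the highest level of the set per length, at 3011 ± 618 CPM per kb of transcript at day 0. In replicates 1 to 4 its level was 3125, 4525, 4171 and 2991 CPM at day 0, 2289.6, 2308, 2927 and 2289.6 at day 1, 2127, 2283, 2490.1 and 1664 at day 3 and 2493, 2451, 1759.7 and 2291 at day 5. Every later sample was below every day 0 sample, and the change was -0.72 ± 0.14 (SE) at day 5 (edgeR, adjusted p = 0.000268). LHCB1.5 (AT2G34420), the next per length at 1078 CPM per kb, was 982, 1347, 1021 and 1158 CPM at day 0 and 1303, 1187, 685 and 1148 at day 5. Its groups overlap on each of the 5 later days and it was not called in any comparison (day 5 -0.06, adjusted p = 0.788).

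Of the other LHCB1 copies, LHCB1.1 (AT1G29920) was 845, 1215, 1027 and 782 CPM at day 0, 287, 378, 496 and 237 at day 3 and 476, 403, 239 and 331 at day 5. At day 5 it fell by 1.42 on the log2 scale (adjusted p = 1.24e-05), to 37.5% of the day 0 mean, and its groups did not overlap. LHCB1.2 (AT1G29910) fell by 1.01 and stood at 49.7%. The largest fall of the LHCB genes at day 3 was in LHCB1.4 (AT2G34430), a weakly expressed copy at 44.1, 82.0, 74.3 and 41.2 CPM at day 0 and 7.33, 22.3, 35.0 and 7.17 at day 3. Its 4 values at day 3 vary widely, yet all lie below day 0 (-1.75 ± 0.41, adjusted p = 0.00257). Estimated day 5 levels of the copies thus ran from 31.1% to 95.9% of day 0, a spread that is uncertain because reads can be assigned to the wrong copy. The coding ends shown above differ from LHCB1.3 at 2 to 11 of 90 bases, which does not tell how well reads separate the copies.

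LHCB2.1 (AT2G05100) and LHCB2.2 (AT2G05070), the LHCII proteins whose phosphorylation serves state transitions, were not called over the 6 days, with means at 112% and 90.6% of day 0 at day 5. LHCB2.2 fell at day 3 (-0.51, adjusted p = 0.0296), a call that was lost without day 0 replicate 1 or 2 or day 3 replicate 1 or 4. LHCB2.3 (AT3G27690) was lower at 30.2 ± 13 CPM at day 3 against 61.7 ± 14 at day 0 (-1.03, adjusted p = 0.00987). LHCB3 (AT5G54270), the third LHCII protein, was not called over the 6 days and fell at day 5 (-0.38, adjusted p = 0.0190), a call that was lost without day 0 replicate 2 or day 5 replicate 3 or 4.

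**Figure D3:**
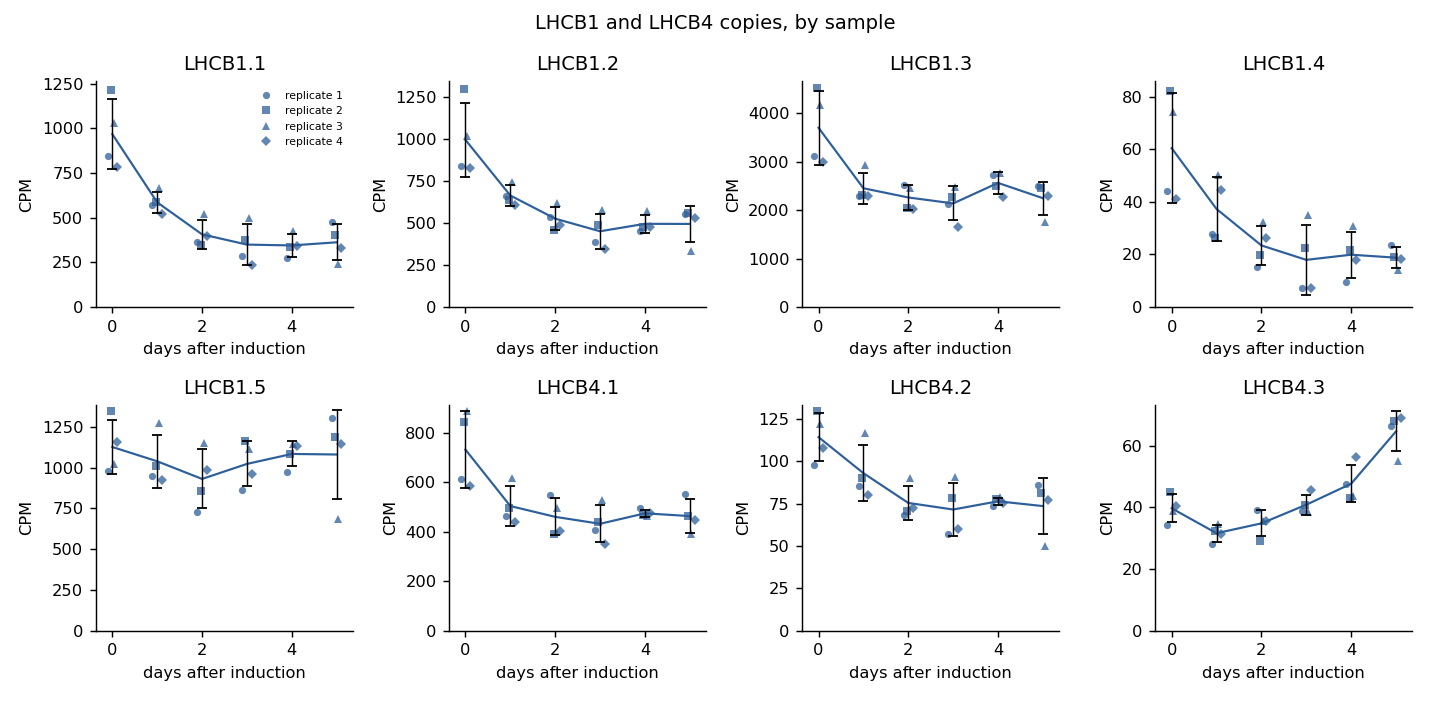
Level in CPM (y axes, from 0) of the 5 LHCB1 and 3 LHCB4 copies against days after induction; symbols are the 4 replicates, lines the means and bars the SD (n = 4). LHCB1.1 and LHCB1.4 drop after day 0, LHCB1.5 is 1127 CPM at day 0 and 1081 at day 5, and LHCB4.3 goes from 31.7 CPM at day 1 to 64.7 at day 5.

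LHCB4.3 (AT2G40100; chromosome 2, 16745628 to 16747424, plus strand, TAIR10.1), a minor form of the linker protein LHCB4 (CP29), moved against the rest. Its level was 34.2, 45.2, 39.0 and 40.6 CPM at day 0, 28.1, 32.3, 34.7 and 31.5 at day 1 and 39.0, 29.1, 35.6 and 35.7 at day 2. It then went through 38.9, 40.7, 38.4 and 45.6 at day 3 and 47.6, 43.2, 43.8 and 56.2 at day 4 to 66.4, 68.1, 55.1 and 69.1 at day 5, where all 4 samples were above all day 0 samples. The change at day 5 was 0.70 ± 0.10 (SE) against day 0 (adjusted p = 7.52e-06) and 1.03 against day 1 (adjusted p = 5.67e-08). At day 4 it missed the threshold (log2 change 0.26). Its day 1 fall (-0.33, adjusted p = 0.0468) was lost when any of 13 single libraries was left out. Its relatives LHCB4.1 (AT5G01530) and LHCB4.2 (AT3G08940) stood at 63.3% and 64.4% of their day 0 means at day 5, and both fell.

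The other linkers fell as well. LHCB5 (AT4G10340; CP26) was 1017, 1322, 1145 and 1008 CPM at day 0 and 774, 746, 615 and 693 at day 5, with no overlap (-0.67 ± 0.10, adjusted p = 7.09e-06). LHCB6 (AT1G15820; CP24) was at 62.4% of day 0. LHCB7 (AT1G76570), a rarely expressed antenna gene and the lowest of the 43 per length at day 0 at 9.24 CPM per kb (at days 3 and 5 LHCA6 was lower), was 13.1, 9.24, 10 and 12.6 CPM at day 0 and 9.03, 10.5, 9.60 and 10.6 at day 5, and was not called in any comparison.

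Of the LHCA genes, LHCA4 (AT3G47470) and LHCA1 (AT3G54890) had the highest levels per length, at 859 and 784 CPM per kb at day 0. LHCA4 was 989.6, 1277, 1166 and 1019.6 CPM at day 0 and 730.3, 880.1, 896 and 663 at day 3 (-0.49 ± 0.11, adjusted p = 0.00143). LHCA1 was 841, 1141, 937 and 843 CPM at day 0 and 577, 715, 720.3 and 562 at day 3, and at day 5, at 914, 746, 532 and 725, replicate 1 lay within the day 0 range. That day 5 fall (adjusted p = 0.0287) was lost without day 0 replicate 2 or day 5 replicate 3 or 4. LHCA3 (AT1G61520) was 552, 763, 689 and 539.8 CPM at day 0 and 389.5, 456, 481 and 381 at day 3, without overlap (-0.57, adjusted p = 0.000753). LHCA2 (AT3G61470) fell from 500.4 ± 101 to 267 ± 39 CPM at day 3.

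LHCA5 (AT1G45474) and LHCA6 (AT1G19150) are scarce antenna proteins that link photosystem I to the chloroplast NADH dehydrogenase-like complex. LHCA6 was 17.2, 22.7, 24.1 and 19.1 CPM at day 0, 13.8, 13.7, 15.3 and 12.7 at day 1 and 9.03, 9.75, 8.46 and 9.85 at day 5, and no sample of days 1 to 5 reached a day 0 sample. Its fall was the largest of the LHCA genes (-1.16 ± 0.12 at day 5, adjusted p = 1.06e-07). LHCA5 had the smallest fall at day 3, from 54.0, 59.3, 54.8 and 53.8 CPM at day 0 to 42.4, 41.0, 48.4 and 44.2, which still do not overlap (-0.33 ± 0.07, adjusted p = 0.00148).

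Among photosystem I subunits, PSAD and PSAE form the stromal docking surface for ferredoxin, PSAF and PSAN act on the lumenal side where plastocyanin binds, PSAG and PSAK lie at the antenna edge, and PSAH, PSAL and PSAO are where LHCII can dock. PSAN (AT5G64040) fell most at day 3, from 235, 349, 356 and 263 CPM at day 0 to 131, 166, 192 and 130.1 (-0.96 ± 0.14, adjusted p = 1.32e-05), with no overlap. PSAH1 (AT3G16140) fell least, from 206, 246, 298 and 193 to 176, 189, 205 and 155 CPM, and these groups overlap. Its call (-0.38, adjusted p = 0.0200) was lost without day 0 replicate 3 or day 3 replicate 4.

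The 3 members with the highest level per length in this group all fell at day 3. PSAL (AT4G12800) was 639, 829, 856 and 607 CPM at day 0 and 427, 464, 526 and 392 at day 3. PSAF (AT1G31330) was 579, 770.2, 695 and 589 and 417, 459.6, 521 and 408 CPM, and PSAO (AT1G08380) 409, 529, 473 and 410.1 and 254, 286, 324 and 239.7 CPM. None of the 3 had overlapping groups, and the changes were -0.70, -0.54 and -0.72. PSAG (AT1G55670) stood at 54.8% of day 0 at day 5 and PSAK (AT1G30380) at 63.3%. PSAD1 (AT4G02770) and PSAD2 (AT1G03130) stood at 74.2% and 70.7%, PSAE1 (AT4G28750) and PSAE2 (AT2G20260) at 61.4% and 62.7%, and PSAH2 (AT1G52230) at 75%. All of these fell at day 5.

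In photosystem II, PSBO, PSBP and PSBQ shield the oxygen-evolving manganese cluster on the lumenal side, PSBS senses lumen acidity in the dissipation of excess light, and PSBR, PSBW, PSBX and PSBY are small proteins of the complex. PSBO1 (AT5G66570; chromosome 5, 26568572 to 26570461, plus strand) was 1026, 1411, 1339 and 1035 CPM at day 0 and 806, 849, 936 and 723 at day 3 (-0.54 ± 0.11, adjusted p = 0.000610). PSBO2 (AT3G50820; chromosome 3, 18890874 to 18892508, minus strand) fell most of the group, from 206, 294, 282 and 212 CPM at day 0 through 132, 131, 167 and 132 at day 1 to 90.6, 90.4, 129 and 85.9 at day 3 (-1.33 ± 0.14, adjusted p = 3.09e-07). At day 5 it was 130.2, 139.6, 98.1 and 138 CPM, still below day 0 in all 4 samples.

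PSBR, PSBO1 and PSBP1 had the highest levels per length of the group, at 941, 798 and 770 CPM per kb at day 0. PSBP1 (AT1G06680) was 895, 1184, 1194 and 889 CPM at day 0 and 605, 648, 740.3 and 567 at day 3, and PSBR (AT1G79040) 613, 786, 857 and 696 and 469, 516, 583 and 458 CPM. Neither overlapped. PSBY (AT1G67740) fell least, from 215, 299, 277 and 210.0 CPM at day 0 to 167, 186, 211 and 171 at day 3, and day 3 replicate 3 lay just inside the day 0 range (-0.45, adjusted p = 0.00432). PSBQ1 (AT4G21280), PSBQ2 (AT4G05180), PSBS (AT1G44575), PSBW (AT2G30570) and PSBX (AT2G06520) were at 60.1%, 56.7%, 67.6%, 62.5% and 68.1% of day 0 at day 5, and all fell.

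For 6 gene pairs the share of the first copy in the summed counts of both was compared between days 5 and 0. PSBO1 made up 82.9% ± 0.31 of PSBO counts at day 0, 86.5% ± 0.33 at day 1, 89.4% ± 1.1 at day 3 and 86.9% ± 1.1 at day 5. All 4 day 5 samples were above all 4 day 0 samples, a difference of 4.03 percentage points (exact two-sided permutation test, p = 0.0286, the smallest that 4 against 4 allows, and 0.171 adjusted over the 6 pairs, so not significant). The other pairs differed by -0.40 to 1.36 points, with exact permutation p from 0.4 to 0.971. PSAE1 was 62.4% ± 1.1 of its pair at day 0, 56.6% ± 2.8 at day 2 and 62.0% ± 1.5 at day 5. Shares on days 1 to 4 were not tested, and PSBO1 was not alone in being higher at day 3. PSAD1 ranged from 69.7% to 71.1% at day 0 and 72.6% to 74.3% at day 3. PSBQ1 ranged from 56.1% to 58.2% and from 59.8% to 61.7%, so neither overlapped. PSAH1 was 53.9% ± 2.5 at day 0 and 58.5% ± 1.2 at day 2, with overlap. LHCB4.1 was 86.3% at day 0 and 85.8% at day 3.

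**Figure D4:**
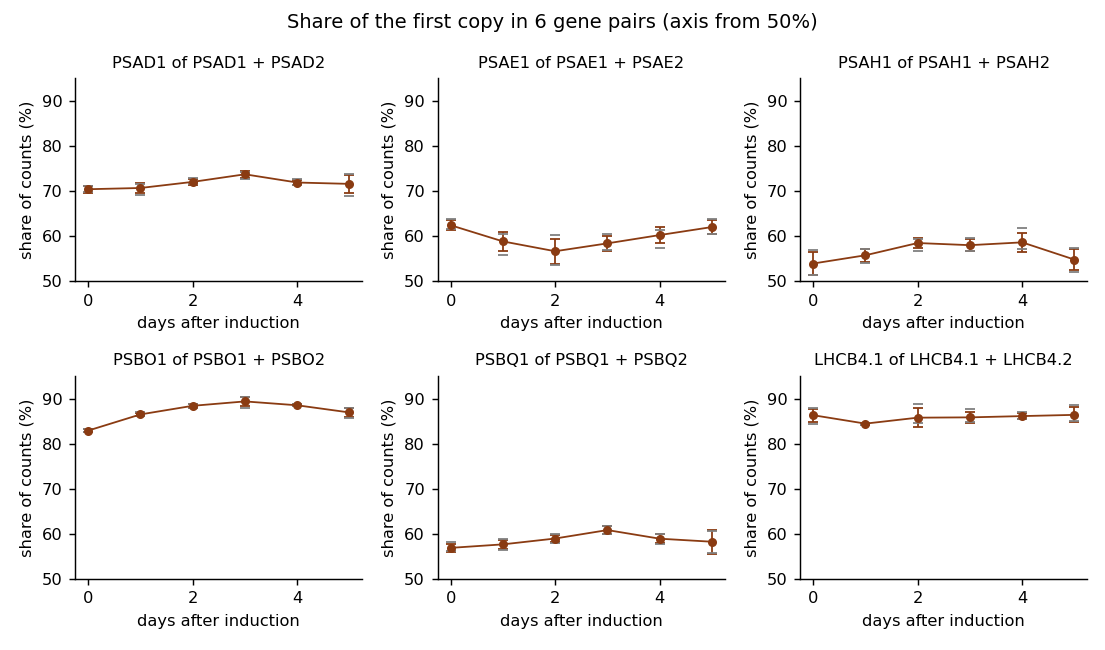
Share of the first copy in the counts of both copies (percent, axis from 50%) against days after induction for 6 gene pairs; points are means, bars the SD and grey dashes the lowest and highest of 4 samples. PSBO1 goes from 82.9% at day 0 to 89.4% at day 3, and LHCB4.1 stays between 84.5% and 86.4%.

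Promoters were read from 250 bases before to 50 after the annotated start in TAIR10.1 and searched on both strands for 4 motifs, chosen with earlier results of these data known. No matches in the 43 windows overlapped each other. The G-box core CACGTG was in 34.9% of members and 7.68% of all 27443 promoters, with 60.0% of photosystem II genes holding it. The I-box GATAAG was in 39.5% against 14.6%, and in 66.7% of photosystem I genes. CCAATC was in 34.9% against 12.3%, and in 52.4% of antenna genes but 8.33% of photosystem I genes. The evening element AAATATCT was in 2.33% (LHCA5 alone) against 5.65%, and 12 members held none of the 4. These are descriptions and show no binding.

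The 250 bases before the start are shown for 1 gene of each group and for LHCB4.3, the gene that rose, in the gene's own orientation with matches in capitals.
LHCA4 (chr3:17495034-17495283, minus strand): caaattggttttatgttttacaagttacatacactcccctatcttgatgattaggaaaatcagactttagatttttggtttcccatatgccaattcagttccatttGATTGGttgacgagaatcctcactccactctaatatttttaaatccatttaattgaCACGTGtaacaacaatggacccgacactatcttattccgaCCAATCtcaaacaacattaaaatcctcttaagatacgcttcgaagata
PSAH2 (chr1:19454548-19454797, plus strand): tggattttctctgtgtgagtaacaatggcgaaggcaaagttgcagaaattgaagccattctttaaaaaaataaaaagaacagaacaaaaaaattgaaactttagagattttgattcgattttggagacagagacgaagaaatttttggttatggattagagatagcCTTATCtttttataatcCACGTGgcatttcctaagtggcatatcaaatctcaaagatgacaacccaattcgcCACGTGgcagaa
PSBQ1 (chr4:11334102-11334351, plus strand): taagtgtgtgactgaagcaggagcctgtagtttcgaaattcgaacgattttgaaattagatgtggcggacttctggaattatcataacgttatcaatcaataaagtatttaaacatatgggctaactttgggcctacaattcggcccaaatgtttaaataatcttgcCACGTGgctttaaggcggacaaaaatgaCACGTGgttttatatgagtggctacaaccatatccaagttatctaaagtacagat
LHCB4.3 (chr2:16745378-16745627, plus strand): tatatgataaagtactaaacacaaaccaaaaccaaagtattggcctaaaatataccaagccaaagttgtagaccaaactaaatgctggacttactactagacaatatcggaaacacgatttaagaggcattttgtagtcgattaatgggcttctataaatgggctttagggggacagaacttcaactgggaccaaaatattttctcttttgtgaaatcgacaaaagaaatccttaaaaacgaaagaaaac
LHCA4 holds a G-box between a pair of CCAATC matches, PSAH2 an I-box (on the other strand) and a pair of G-boxes, and PSBQ1 a pair of G-boxes, whereas none of the 4 motifs is in the LHCB4.3 stretch. LHCB4.3 shares that with LHCB1.1, LHCB1.4 and LHCA6 among others, which fell. LHCA4, PSAH2 and PSBQ1 all hold a G-box, but as a set they are not typical of the 43 members. The G-box was in 34.9% of these, and in 16.7% of LHCA, 33.3% of photosystem I and 60.0% of photosystem II genes.

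Other genes of the photosynthetic pathway were counted in lists chosen with earlier results known. Of all tested genes 5.85% fell and 4.21% rose at day 1, 14.5% and 14.6% at day 3, and 22.9% and 24.3% at day 5. Of 13 electron transport and ATP synthase genes 10 fell at day 3 (median -0.65), among them LFNR2 (AT1G20020), a ferredoxin-NADP reductase, from 281 to 173 CPM, and ATPC1 (AT4G04640), the gamma subunit of the ATP synthase, from 238 to 150. PGR5, a factor of cyclic electron flow, was 48.1 and 51.2 CPM and was not called. All 13 carbon fixation genes fell on each of the 5 days (median -0.84 at day 3). RBCS2B (AT5G38420), a Rubisco small subunit copy that can share reads with its neighbours RBCS1B and RBCS3B, was 278, 462, 564 and 329.9 CPM at day 0 and 103, 83.5, 68.3 and 69.6 at day 5 (-2.33).

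Of 19 tested chlorophyll synthesis genes 14 fell at day 3 and 14 at day 5 (medians -0.50 and -0.32). PORB (AT4G27440), a protochlorophyllide oxidoreductase, was 808, 944, 1025 and 744 CPM at day 0 and 503, 546, 590.1 and 464 at day 3, without overlap. HEMC (AT5G08280), CHLI2 (AT5G45930) and DVR (AT5G18660) fell by 0.74, 0.82 and 0.72 at day 3. CAO, which makes chlorophyll b, rose from 57.0 to 69.6 CPM at day 5 (0.29), and HEMA2 from 8.42 to 13.3. GUN4, an activator of magnesium chelatase, was 39.1 CPM at day 0 and 41.9 at day 5 and was not called. Of 8 chlorophyll breakdown genes 2 fell and 4 rose at day 5 (22.9% and 24.3% of all tested genes). In a list this short these counts are not set apart from those shares. NYE2 (AT4G11910) rose from 0.634 to 1.61 CPM and PPH (AT5G13800), a pheophytinase, from 32.1 to 56.1. HCAR (AT1G04620), which converts chlorophyll b derivatives back to the a form, fell from 46.6 to 24.4.

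Of 16 assembly and antenna phosphorylation genes 13 fell at day 3 (median -0.43) and none rose. CPFTSY (AT2G45770) and CPSRP54 (AT5G03940), which deliver antenna proteins to the thylakoid membrane, fell by 0.46 and 0.49, and HCF136 (AT5G23120), a photosystem II assembly factor, by 0.47. STN7, the kinase of LHCII, was 42.2 CPM at day 0 and 38.4 at day 3 and was not called. Of 8 xanthophyll cycle and antenna-like genes 2 fell at day 3 (14.5% of all tested genes). At day 5, 3 fell and 2 rose (22.9% and 24.3%), and in a list this short these counts are not set apart from those shares. Of 6 plastid sigma factors SIG2, SIG4 and SIG6 fell and SIG5 rose at day 3. For plastid-encoded photosystem genes, 20 identifiers were listed and 10 were tested, which the reference used here does not pair with names. Of these 10, 2 fell at day 1 and all 10 at day 5 (median -1.15), in libraries made from polyadenylated RNA, where plastid transcripts are caught poorly.

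Of 16 regulators and photoreceptors of the pathway 4 fell and 2 rose at day 3, where 14.5% of all tested genes fell and 14.6% rose. At day 5, 5 fell and 5 rose, where the shares were 22.9% and 24.3%. In a list this short these counts are not set apart from those shares. GLK1 (AT2G20570), a transcription factor known to activate antenna and chlorophyll synthesis genes, was 20.4, 20.7, 27.6 and 18.8 CPM at day 0, 20.2, 16.3, 18.1 and 12.6 at day 1, 3.30, 5.44, 6.02 and 7.59 at day 4 and 8.76, 10.9, 5.86 and 12.3 at day 5. It was not called at day 1 (-0.38, adjusted p = 0.329) and fell at day 4 (-1.97 ± 0.26, adjusted p = 2.76e-06), with no overlap. Its paralogue GLK2 was 22.3 CPM at day 0 and 21.6 at day 3 and was not called on any day, and HY5, a light-signalling factor, was 12.6 and 15.6 CPM and was not called. GNC (AT5G56860), a GATA factor that promotes greening, was 5.76, 7.24, 12 and 6.01 CPM at day 0 and 1.95, 2.44, 3.19 and 3.00 at day 3 (-1.55, adjusted p = 6.58e-06). PHYA (AT1G09570), the far-red photoreceptor, rose from 81.9, 86.7, 104 and 75.6 CPM at day 0 to 162, 186, 198 and 201 at day 5 (log2 change 1.1), and CRY2 (AT1G04400) rose from 195 to 232.

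**Figure D5:**
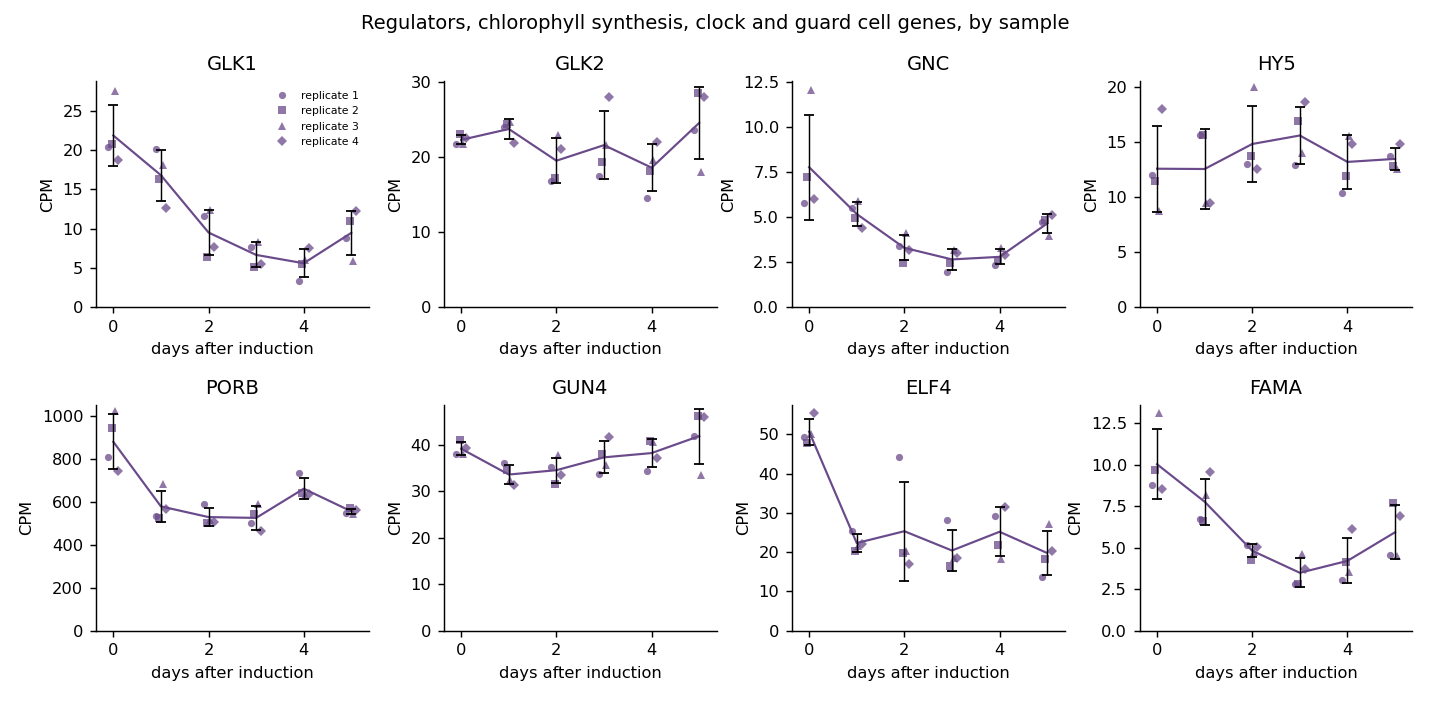
Level in CPM (y axes, from 0) of the regulators GLK1, GLK2, GNC and HY5, the chlorophyll synthesis genes PORB and GUN4, the clock gene ELF4 and the guard cell gene FAMA against days after induction; symbols are the 4 replicates, lines the means and bars the SD (n = 4). GLK1 is 21.9 CPM at day 0 and 5.59 at day 4 where GLK2 is 22.3 and 18.6, and ELF4 is 50.7 at day 0 and 22.3 at day 1.

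Several other lists moved over the same days, and their part in the falls of the 43 genes was not tested. For comparison, 5.85% of all tested genes fell and 4.21% rose at day 1, and 22.9% and 24.3% at day 5. Of 8 evening clock genes 5 fell at day 1 and 5 at day 5, with none rising, and their summed level was 850 to 961 CPM at day 0, 641 to 659 at day 1 and 551 to 628 at day 5. ELF4 (AT2G40080) was 49.3, 47.9, 50.1 and 55.4 CPM at day 0 and 25.5, 20.2, 21.5 and 22.1 at day 1. Of 7 morning clock genes none was lower at day 1 (median log2 change 0.73), against 9946 of the 19747 tested genes, yet none was called. At day 5, 4 of them rose. Their summed level was 231 to 320 CPM at day 0, 317 to 416 at day 1 and 284 to 401 at day 5. Of 6 genes induced in darkness or by low sugar, 2 fell at day 1 and 4 rose at day 5. In sum, day 5 replicate 1 stood apart with 1551 CPM against 189 to 315 in the other 3. Those 3 lay below all day 0 samples, which were at 335 to 676 CPM, so the sum was above day 0 in 1 sample only. Day 5 replicate 1 was also the highest of day 5 for 33 of the 43 photosystem and antenna genes.

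Of 4 guard cell markers, which label the green cells of the epidermis, none was called at day 1. On days 2 to 5, 3, 3, 4 and 3 fell (12.4%, 14.5%, 17.6% and 22.9% of all tested genes). Their summed level was 11.3 to 17.7 CPM at day 0, 4.01 to 6.17 at day 3 and 5.67 to 9.40 at day 5, and none of the 4 was at 0 on average on any day. FAMA (AT3G24140), which directs guard cell fate, was 8.79, 9.68, 13.1 and 8.55 CPM at day 0 and 2.80, 2.80, 4.64 and 3.71 at day 3. All 4 epidermis markers rose at days 3 to 5 (14.6%, 17.8% and 24.3% of all tested genes), with PDF1 (AT2G42840) going from 1299 to 2312 CPM at day 5. Of 9 meristem markers 7 fell and 2 rose at day 5 (22.9% and 24.3% of all tested genes), STM (AT1G62360) going from 159 to 69.3 CPM while LFY (AT5G61850) went from 48.5 to 62.0. AP1 counts rose too, and can include the transgene. Of 6 vasculature markers 3 fell and 2 rose at day 5, counts that in a list this short are not set apart from the same shares. Of 4 tapetum markers 2 were tested, A9 and AMS, and both rose at days 3 and 5 against day 0 but were not called over the 6 days, at days 1, 2 and 4, or from day 1 to day 5. The summed tapetum level rests on single libraries, at 0.559, 3.82, 1.70 and 14.9 CPM at day 5 and 1.51, 0.510, 0.106 and 26.2 at day 3, against 0 to 0.472 at day 0.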

How the data were processed

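The values are whole-number estimated counts per gene and sequencing run, deposited as 1 table. Per the submitters' processing notes the tools named are FastQC, Trim Galore, Salmon 0.12.0 and DESeq2, with the build TAIR10, in no stated order. The 43 genes and all gene lists and motifs were chosen with earlier results of these data known. The 2 runs of each of the 24 samples were summed; they differed little beyond sampling noise (chi-square per degree of freedom 1.05 to 1.23, against 3.62 to 62.4 between replicates). In edgeR 4.0.16 (R 4.3.3) counts were scaled by TMM (factors 0.944 to 1.04), genes were kept by filterByExpr (minimum count 10, minimum total 15), and 1 model with day as a factor was fitted to all samples (18 residual degrees of freedom). The script was tested on simulated data. Alternatives were DESeq2 1.42.0, other scalings and filters, each sequencing batch alone, the 2 compared days alone, the replicate number as a block, and each library or replicate number left out. The test among days 1 to 5 and that of day 5 against day 1 were added after the data were seen. Copy shares were compared by exact permutation. Members given sample by sample are the 3 with the highest mean CPM over the 24 samples in each group, the largest and smallest fall per group at day 3, those moving against the rest, and LHCA5, LHCA6, LHCB4.3 and LHCB7; LHCB1.1 was added after its values were seen. Positions and sequences come from NCBI's TAIR10.1 genome and annotation. The sources used here do not say which tool made the counts or how reads of near-identical copies were divided. Same-numbered replicates were not treated as pairs, since the labels tie them to nothing shared and their deviations were not correlated throughout.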

Additional observations from a re-analysis of the deposited data

Results flagged for a closer look

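Of 294 sets of 4 replicates examined, 17 had 1 sample far from the other 3 by a gap test that chance passes about 1 time in 20. In 14 of them the sample was day 1 replicate 3, which was high. Its levels were 888 CPM for LHCA1, 558 for LHCA3, 2927 for LHCB1.3, 276 for PSAD1, 165 for PSAE1 and 555 for PSAF. For PSAK it was 275 CPM, for PSAN 226, for PSAO 376, for PSBO2 167, for PSBQ2 228 and for PSBW 399. The summed level of the LHCA genes was 3005 CPM in that sample and that of the photosystem I genes 3438 CPM. Without this library 32 members fell at day 1, against 31 with it. In number, 17 flags of 294 sets are near the rate of 1 in 20. Genes that vary together in 1 library are not separate cases, and the LHCA and photosystem I sums include flagged genes.

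The remaining 3 also concern replicate 3 of a day. LHCB1.2 was low in day 5 replicate 3, at 334 CPM, and LHCB5 was high in day 4 replicate 3, at 802 CPM. PSBO2 was high in day 3 replicate 3, at 129 CPM.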

How the results depend on the processing

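The median log2 change of the 43 genes, the antenna and each photosystem group shifted by less than the SD between replicates of a day. This held in every alternative but the 2 compared days alone, for which no medians were computed. Whether medians near 0, as from day 4 to day 5, kept their sign was not checked. No member's call reversed in these alternatives. LHCB4.3 rose at day 4 against day 0 (1 member, main count 0) with DESeq2, with DESeq2-type size factors, with library totals, with a mean of at least 10 CPM and with batch 1 alone. With library totals 9 members changed among days 1 to 5 and 18 fell from day 1 to day 5. Fitting the 2 compared days alone gave 2 members fallen from day 1 to day 2 and 0 risen from day 4 to day 5. The share of LHCB4.1 differed by -0.0622 points with batch 1 alone and that of PSAE1 by 0.176 points with batch 2 alone, and leaving out a replicate number gave -0.201 to 0.632 points for LHCB4.1, -1.29 to 0.277 for PSAE1, 0.639 to 2.29 for PSAD1, 0.158 to 2.81 for PSAH1, 3.62 to 4.45 for PSBO1 and 0.475 to 2.64 for PSBQ1. The cause of these shifts was not tested.

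Leaving out a replicate number or 1 library gave ranges of 1 to 33 members fallen at day 1, 26 to 41 at day 2, 34 to 39 at day 3, 27 to 38 at day 4 and 31 to 38 at day 5, with 1 risen at day 5 throughout and 0 to 1 at day 4. The day 1 count was 1 without replicate number 2 and 19 without number 4. Over the 6 days 28 to 40 members changed, among days 1 to 5 2 to 10, from day 1 to day 5 1 to 10 fell, and from day 4 to day 5 0 to 3 rose. With the replicate number as a block 32 members fell at day 1 and 5 changed among days 1 to 5, no count moved by over 1.5 times, and the block ended 1 call, LHCB1.2 between days 1 and 5 (adjusted p = 0.0537). Same-numbered samples correlated at -0.312 to 0.604 (median 0.0456), and 9 of 24 samples correlated best with their own number.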
